A study of Mus musculus with 6 samples.

Results

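The 7 genes described here encode 6 subunits of the GABA-A receptor (*Gabra2*, *Gabra3*, *Gabra4*, *Gabra5*, *Gabrb1* and *Gabrb2*) and gephyrin (*Gphn*). They were taken by gene symbol from a list, out of 31053 genes, by a rule that sets no threshold on a measured value. The 7 genes were, however, chosen with earlier results of these data known. Their editing was measured in primary mouse cortical neurons with Ribo-STAMP, in which rAPOBEC1, a cytidine deaminase that turns C into U, is fused to a ribosomal protein and marks mRNAs that ribosomes engage. Neurons were wild-type cells dissected at E18 from C57BL/6J embryos, and floxuridine was added at DIV 3 to hold back dividing cells. The cells of all 6 libraries received AAV at DIV 6 and Dox (1 μg per ml for 48 h), and were collected at DIV 14. In 3 of these libraries mouse RPL10A was joined to the C terminus of the enzyme (RPL10A-STAMP), and in the other 3 mouse RPL22 to its N terminus (RPL22-STAMP). Both are proteins of the large subunit. The comparison asks how the editing read out for each gene differs between these constructs. The tagged protein, the side of the fusion and the level of expression cannot be told apart here. A synapsin promoter drove rtTA, the Dox-dependent activator, so that expression was directed to neurons, while RNA came from all cells in the well. The measured value is EPR, the edits in a gene divided by its reads. The reads behind each EPR are unknown, so no counting error could be given, and an EPR of 0 can mean no edits or no reads. A higher share of expressing cells and more edits per transcript cannot be told apart in these bulk values. Uninfected cultures, the background for editing, were not analysed here.

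GABA-A receptors are chloride channels that open when GABA binds, and they carry most fast inhibition in the cortex. Each channel is built from several subunits, most often alpha and beta subunits, which together form the GABA sites, with a gamma or delta subunit. Gephyrin is the scaffold that holds many of these receptors, and glycine receptors, under inhibitory synapses. *Gabra2* and *Gabra3* encode alpha subunits found largely at synapses, whereas *Gabra4* and *Gabra5* encode alpha subunits known for receptors outside synapses that carry tonic inhibition. *Gabrb1* and *Gabrb2* encode beta subunits.

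The alpha and beta genes are related in sequence, and the stretch below is shown because it holds the longest coding run shared by any pair of the 7 genes and because the bases open to the enzyme can be read in it. It was located in the other subunits as the 24 in-frame coding bases with the fewest differences. Capitals mark C, the base that rAPOBEC1 can convert, and sequences are given 5′ to 3′ on the coding strand of GRCm38.
*Gabra3*, chrX:72451586-72451609, minus strand: ggCtaCtttgtCatCCagaCCtaC
*Gabra5*, chr7:57418302-57418325, minus strand: ggCtaCtttgtCatCCagaCCtaC
*Gabra2*, chr5:71006189-71006212, minus strand: gggtattttgtgattCagaCCtat
*Gabra4*, chr5:71633628-71633651, minus strand: ggCtaCtttatgattCagaCgtat
*Gabrb1*, chr5:72108731-72108754, plus strand: ggttaCttCattttgCagaCCtaC
*Gabrb2*, chr11:42593844-42593867, plus strand: ggCtaCttCatCCtgCagaCataC

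Each stretch lies in 1 coding exon. *Gabra3* and *Gabra5* were identical over all 24 bases and hold 8 C. The same place in *Gabra2* differs from them at 5 bases and holds 3 C, and that in *Gabra4* differs at 5 bases and holds 4 C. *Gabrb1* differs at 6 bases with 6 C, and *Gabrb2* at 5 bases with 8 C. No run of 50 bases was shared between the transcripts of any 2 of the 7 genes. Runs of 50 bases with an exact copy elsewhere in the genome were found in *Gabra2* alone, where they made up 3.14% of such runs and lay in its UTRs. In the 1 transcript searched per gene, exact runs of 50 bases thus set the 7 genes apart, except in those parts of *Gabra2*. UTR bases outside these transcripts and inexact copies elsewhere in the genome were not searched.

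*Gabra2*, *Gabra4* and *Gabrb1* neighbour each other on chromosome 5. *Gabra2* (chr5:70957597-71095849) and *Gabra4* (chr5:71569749-71658308) lie on the minus strand and *Gabrb1* (chr5:71658113-72149037) on the plus strand. *Gabra4* and *Gabrb1* overlap at their 5′ ends, over 0.756% of the exon bases of *Gabra4* and 0.332% of those of *Gabrb1*. *Gabra3* lies on chrX:72432681-72656848 and *Gabra5* on chr7:57407672-57510059, both on the minus strand. In *Gabra5*, 4.98% of the exon bases are shared with *Gm9962* on the opposite strand. *Gabrb2* (chr11:42419757-42629028) and *Gphn* (chr12:78226379-78684772) lie on the plus strand and share no exon base with another gene. The library kit keeps strand, but whether reads were counted by strand is not given in the sources used here, so overlapping bases could add reads or edits of the other gene.

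All 7 genes had an EPR above 0 in all 6 libraries, as had 8046 genes in all, and these 8046 were tested. EPR was higher with RPL10A-STAMP for *Gabra2*, *Gabra3*, *Gabra4* and *Gabrb1*, and *Gabra5*, *Gabrb2* and *Gphn* did not pass the test. For this test the EPR values of a library were scaled by their median in these 8046 genes, and log2(EPR + 0.01) was compared with limma, with Benjamini-Hochberg adjustment over all 8046 genes and a threshold of 0.05. Thus 4 of the 7 genes were called, all higher with RPL10A-STAMP, where 14.3% of all genes tested were called, 8.51% in that direction and 5.77% in the other. Because the 7 genes were chosen with earlier results of these data known, these shares are no independent contrast. The median log2 difference of the 7 genes was 0.59, and that of all genes tested was -0.01. Log2 differences below are RPL10A-STAMP minus RPL22-STAMP on this scaled log2(EPR + 0.01) scale, which understates the change of low values, while EPR in single libraries is given as deposited.

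**Figure D1:**
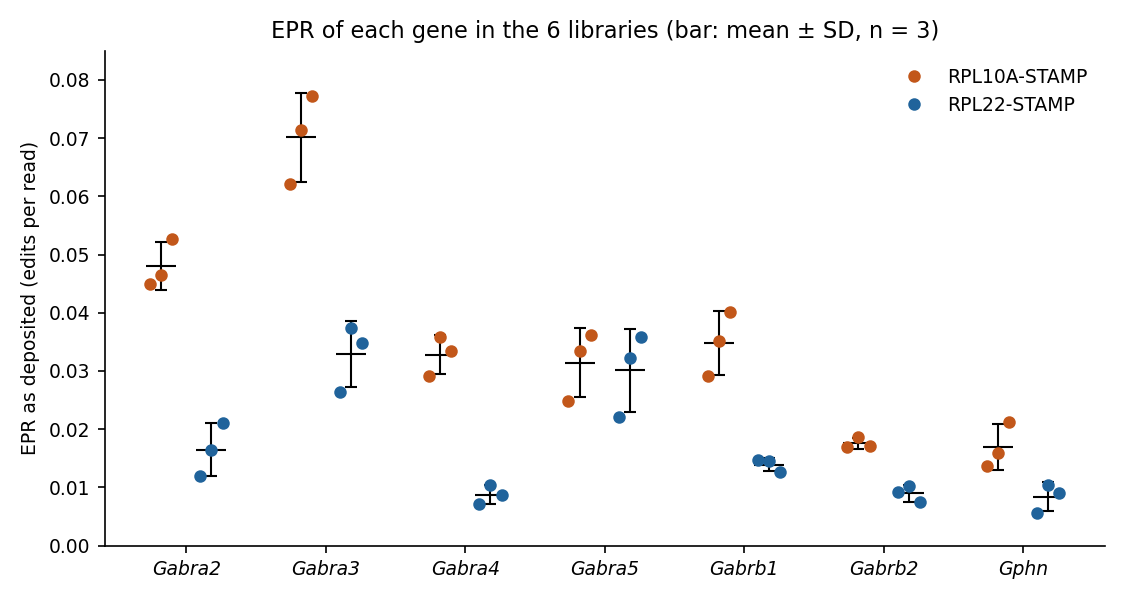
EPR as deposited (edits per read, vertical axis, starting at 0) of the 7 genes in each of the 6 libraries. Points are libraries, orange for RPL10A-STAMP and blue for RPL22-STAMP, and black bars give the mean ± SD of 3 libraries. The 2 variants overlap in *Gabra5*, at 0.0222 to 0.0361, and are separated in the other 6 genes.

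*Gabra4* had the largest log2 difference of the 7 genes. Its EPR was 0.0292, 0.0358 and 0.0334 in RPL10A-STAMP libraries 1 to 3, and 0.00714, 0.0105 and 0.00872 in RPL22-STAMP libraries 1 to 3. The lowest RPL10A-STAMP library was thus well above the highest RPL22-STAMP library. The means were 0.0328 ± 0.00335 and 0.00879 ± 0.00167 (SD, n = 3 each), a ratio of 3.73. The log2 difference was 0.95 (SE 0.124, limma adjusted p = 0.00529). *Gabra4* also moved most in standing: it lay above 80.7% to 86.2% of the genes tested in the RPL10A-STAMP libraries, and above 36.8% to 39.1% of them in the RPL22-STAMP libraries.

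*Gabra2* followed. RPL10A-STAMP libraries gave an EPR of 0.0449, 0.0465 and 0.0526, and RPL22-STAMP libraries one of 0.0120, 0.0164 and 0.0211. No RPL22-STAMP library reached the level of an RPL10A-STAMP library, and the RPL22-STAMP libraries were the more spread relative to their mean. The means were 0.0480 ± 0.00406 and 0.0165 ± 0.00459 (SD, n = 3 each), a ratio of 2.91, with a log2 difference of 0.87 (SE 0.158, limma adjusted p = 0.0155).

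*Gabra3* had the highest EPR of the 7 genes in every library but RPL22-STAMP 3, where *Gabra5* was higher. The values were 0.0620, 0.0713 and 0.0772 for the RPL10A-STAMP libraries and 0.0265, 0.0375 and 0.0348 for the RPL22-STAMP libraries. The variants were separated by a wide gap, yet *Gabra3* stood above 91.4% to 96.8% of the genes tested in every library. The means were 0.0702 ± 0.00765 and 0.0329 ± 0.00573 (SD, n = 3 each), a ratio of 2.13. The log2 difference was 0.59 (SE 0.127, limma adjusted p = 0.0254).

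*Gabra5* did not share this pattern. RPL10A-STAMP libraries gave 0.0248, 0.0334 and 0.0361, and RPL22-STAMP libraries 0.0222, 0.0323 and 0.0359. As deposited, the 2 sets of libraries covered nearly the same range. The means were 0.0314 ± 0.00592 and 0.0301 ± 0.00711 (SD, n = 3 each), a ratio of 1.05. After scaling the libraries were separated, at 0.026 to 0.028 with RPL10A-STAMP and 0.031 to 0.040 with RPL22-STAMP. Scaled values did not overlap, in either direction, for 37.1% of all genes tested. The log2 difference after scaling was -0.24, with a 95% interval of -0.57 to 0.09 (SE 0.140, limma adjusted p = 0.292). Without scaling it turned to 0.05 (limma adjusted p = 0.910). The interval reaches below no difference further than above it, and it leaves out the differences measured for the other 3 alpha genes. *Gabra5* stood above 81.5% to 83.0% of the genes tested with RPL10A-STAMP and above 88.8% to 91.9% with RPL22-STAMP.

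Of the beta genes, *Gabrb1* was called and *Gabrb2* was not. *Gabrb1* had an EPR of 0.0292, 0.0351 and 0.0401 in RPL10A-STAMP libraries and of 0.0147, 0.0145 and 0.0126 in RPL22-STAMP libraries. All 3 RPL22-STAMP libraries lay close together and below the RPL10A-STAMP libraries. The means were 0.0348 ± 0.00548 and 0.0139 ± 0.00113 (SD, n = 3 each), with a log2 difference of 0.63 (SE 0.145, limma adjusted p = 0.0318). *Gabrb2* had an EPR of 0.0170, 0.0186 and 0.0171 in RPL10A-STAMP libraries and of 0.00914, 0.0103 and 0.00750 in RPL22-STAMP libraries. Its libraries were separated too, but at low values, with a ratio of the means of 1.95 and a log2 difference of 0.32 (95% interval -0.02 to 0.66, limma adjusted p = 0.179).

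For *Gphn*, the scaffold, the RPL10A-STAMP libraries gave 0.0136, 0.0160 and 0.0212, and the RPL22-STAMP libraries 0.00561, 0.0104 and 0.00912. The lowest RPL10A-STAMP library was above the highest RPL22-STAMP library by less than the range within either variant. The means were 0.0169 ± 0.00390 and 0.00838 ± 0.00249 (SD, n = 3 each), a ratio of 2.02, with a log2 difference of 0.35 (95% interval 0.04 to 0.66, limma adjusted p = 0.123). In deposited values, every RPL10A-STAMP library was above every RPL22-STAMP library for 6 of the 7 genes, as for 28.2% of all genes tested. Whether replicates came from separate cultures is given both ways in the study, so the spread and p values may be technical.

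**Figure D2:**
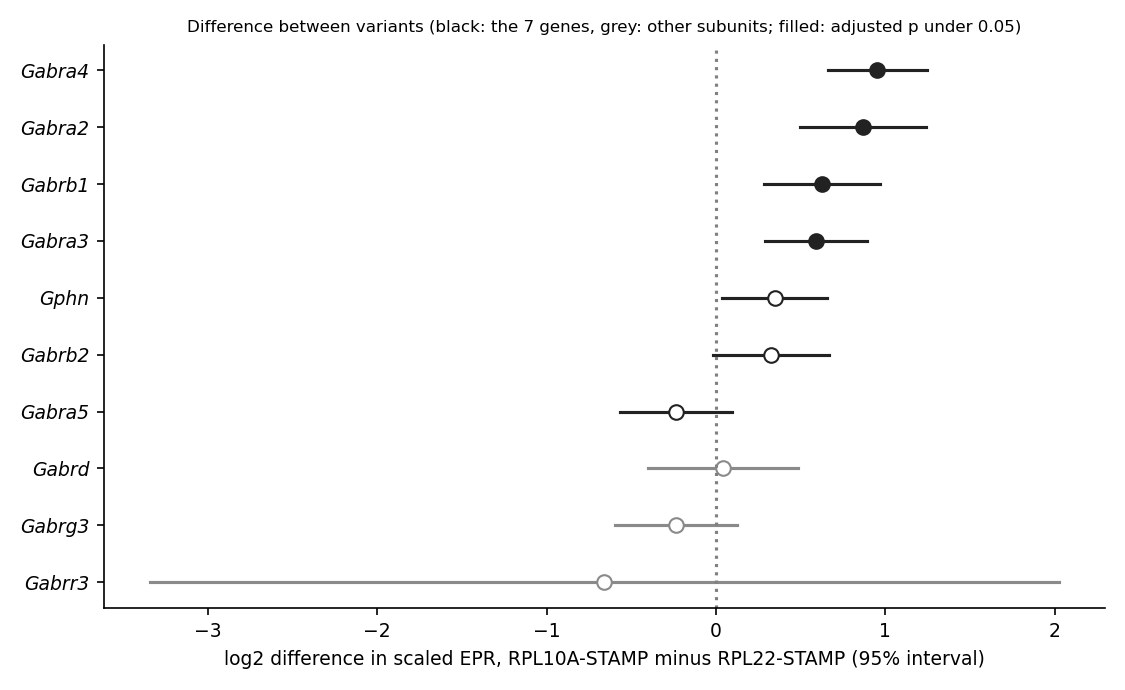
Log2 difference in scaled EPR, RPL10A-STAMP minus RPL22-STAMP (horizontal axis), with its 95% interval, for the 7 genes (black) and 3 other GABA-A receptor subunits (grey). Filled points have a limma adjusted p under 0.05: *Gabra4* (0.95), *Gabra2* (0.87), *Gabrb1* (0.63) and *Gabra3* (0.59), while the intervals of the 3 grey genes include 0.

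The order of the genes by mean EPR differed between the variants. EPR divides edits by the reads of the same gene, but not by transcript length or by the number of C that could be edited. With RPL10A-STAMP the order was *Gabra3*, *Gabra2*, *Gabrb1*, *Gabra4*, *Gabra5*, *Gabrb2* and *Gphn*. There the libraries of *Gabrb1* and *Gabra4* overlapped, as did those of *Gabra4* and *Gabra5* and those of *Gabrb2* and *Gphn*, so these neighbours did not differ beyond their spread. With RPL22-STAMP the order was *Gabra3*, *Gabra5*, *Gabra2*, *Gabrb1*, *Gabrb2*, *Gabra4* and *Gphn*. There *Gabra3* overlapped with *Gabra5*, *Gabra2* with *Gabrb1*, *Gabrb2* with *Gabra4*, and *Gabra4* with *Gphn*. *Gabra5* thus ranked 4 or 5 of the 7 in RPL10A-STAMP libraries and 1 or 2 in RPL22-STAMP libraries, and *Gabra4* ranked 3 to 5 in the former and 5 or 6 in the latter.

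The EPR of each subunit was next divided by that of *Gphn* in the same library, which does not depend on how libraries are scaled. It does depend on *Gphn*, whose mean EPR was itself 2.02 times as high with RPL10A-STAMP, against 1.05 times for *Gabra5*. A difference in ratio is thus not a difference in the subunit alone. The *Gabra5* to *Gphn* ratio was 1.82, 2.09 and 1.70 in RPL10A-STAMP libraries and 3.95, 3.10 and 3.93 in RPL22-STAMP libraries. All RPL22-STAMP libraries were higher, with means of 1.87 ± 0.200 and 3.66 ± 0.487 (SD, n = 3 each; two-sided exact permutation p = 0.1, 0.2 after adjustment over the 6 subunits). The *Gabra4* ratio went the other way, at 2.14, 2.24 and 1.57 against 1.27, 1.01 and 0.956, as did the *Gabra2* ratio, at 3.30, 2.91 and 2.48 against 2.13, 1.57 and 2.32. Neither overlapped between the variants, and each had the same exact p of 0.1 (0.2 adjusted). With 3 libraries against 3 no p below 0.1 can be had, so none of these ratios could pass the threshold. The ratios of *Gabra3* (4.22 ± 0.507 and 4.04 ± 0.597), *Gabrb1* (2.08 ± 0.164 and 1.80 ± 0.712) and *Gabrb2* (1.07 ± 0.236 and 1.15 ± 0.426) overlapped (SD, n = 3 each; exact permutation p = 0.9, 0.4 and 0.8). The RPL22-STAMP 1 library, in which *Gphn* had its lowest EPR of 0.00561, gave the highest ratio of *Gabra3*, *Gabra5*, *Gabrb1* and *Gabrb2*. Without it, the mean *Gabrb1* difference rose from 0.28 to 0.69 and the *Gabrb2* difference turned from -0.08 to 0.17.

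**Figure D3:**
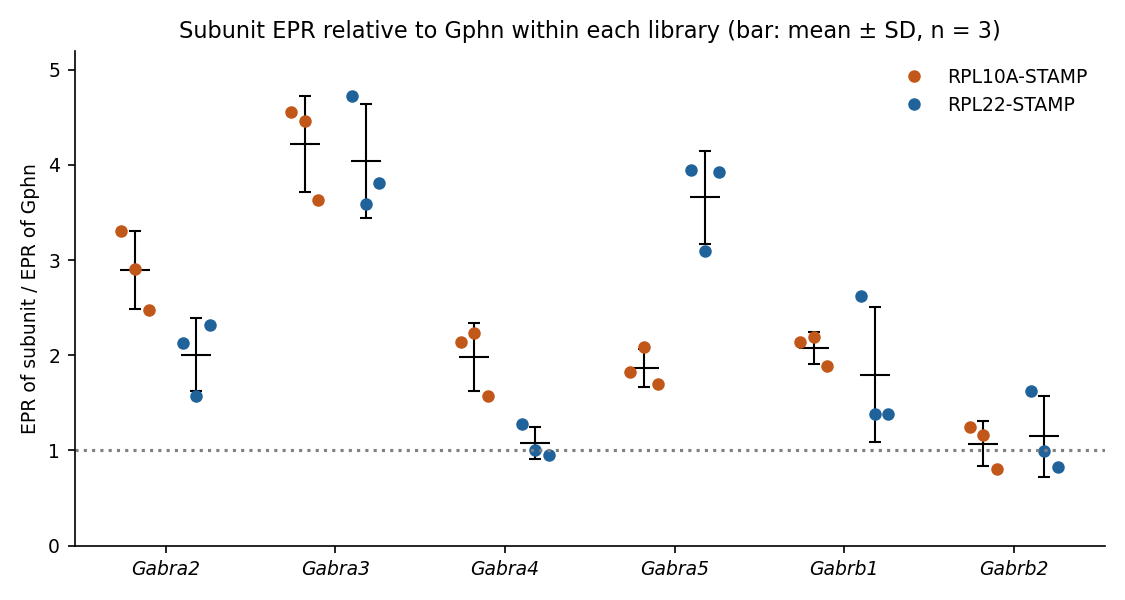
EPR of each subunit divided by the EPR of *Gphn* in the same library (vertical axis, no unit, starting at 0). Points are libraries, orange for RPL10A-STAMP and blue for RPL22-STAMP, black bars give the mean ± SD of 3 libraries, and the dotted line marks a ratio of 1. *Gabra5* is the subunit with the higher ratios in RPL22-STAMP libraries (3.10 to 3.95 against 1.70 to 2.09), and *Gabra2* and *Gabra4* are separated the other way. The mean EPR of *Gphn* itself was 2.02 times as high with RPL10A-STAMP.

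What the rule did not use was compared next. All 7 transcripts had a GC content below the median of the genes tested (48.9%), and those of *Gabra2* (38.4%), *Gabrb1* (40.9%) and *Gabra4* (44.2%) lay below the lower quartile (44.5%). *Gabra3* had 45.2%, *Gphn* 45.9%, *Gabrb2* 46.0% and *Gabra5*, the highest, 47.1%. The log2 difference of all genes tested fell with GC content, with a median of 0.27 in genes below the lower quartile and -0.25 in those above the upper one (53.6%). Once the GC trend of each library had been taken out, *Gabra4* was the 1 gene of the 7 still called, at 0.72 (limma adjusted p = 0.0191), where 4.07% of all genes were called in that direction. The log2 differences of *Gabra2* (0.41, adjusted p = 0.174), *Gabra3* (0.40, adjusted p = 0.102) and *Gabrb1* (0.26, adjusted p = 0.281) kept their direction and no longer passed. The *Gabra5* difference became -0.34 (adjusted p = 0.178).

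**Figure D4:**
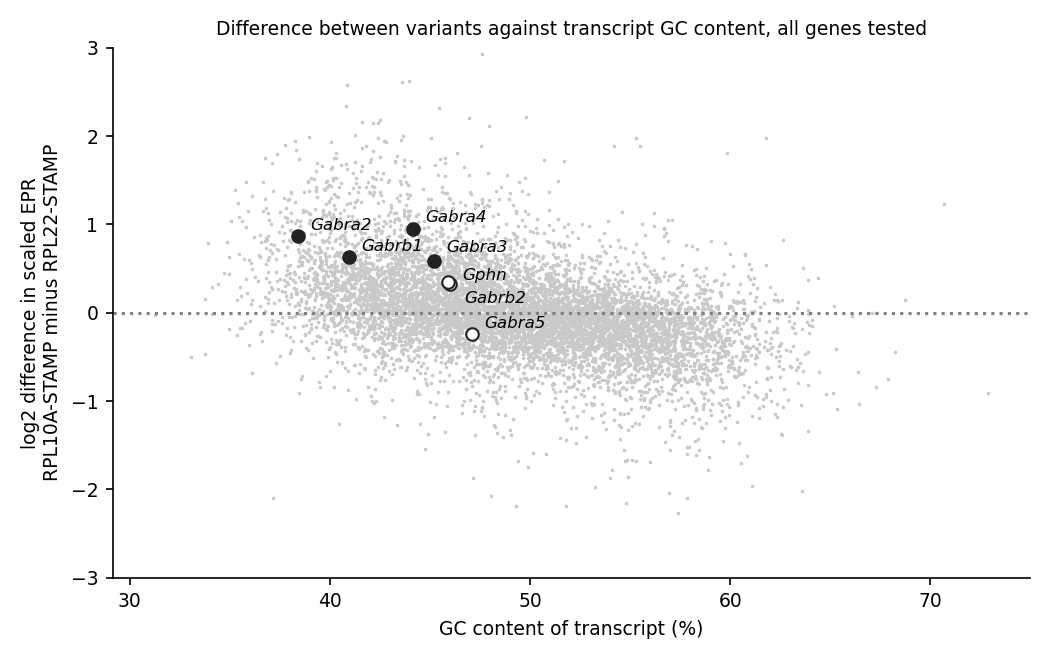
Log2 difference in scaled EPR, RPL10A-STAMP minus RPL22-STAMP (vertical axis, drawn from -3 to 3, with 3 genes outside), against the GC content of the transcript with the longest coding sequence (horizontal axis, percent). Grey points are all genes tested and large points the 7 genes, filled where the limma adjusted p was under 0.05. The 7 genes lie between 38.4% and 47.1% GC, where many genes have positive differences, and *Gabra5* lies at -0.24.

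The coding sequences had 43.0% to 49.0% GC, a narrower range than the transcripts. C made up 21.4% of the coding bases of *Gabra2* and 26.4% of those of *Gabra5*, the lowest and highest of the 7. The share of coding C that follow an A or a T, the context rAPOBEC1 is known to prefer, ran from 50.6% in *Gabra5* to 56.5% in *Gabra3*. The transcripts differed most in their 3′ UTRs, of 12228 bases in *Gabrb1*, 4205 in *Gabra2*, 935 in *Gabra5*, 856 in *Gphn*, 498 in *Gabra4* and 74 in *Gabra3*. For *Gabrb2* the transcript used holds no UTR, so its GC content is that of the coding sequence. When the trend with transcript length was removed in place of that with GC content, *Gabrb1* was no longer called (0.36, limma adjusted p = 0.153) and *Gabra2*, *Gabra3* and *Gabra4* were, where 7.60% of all genes tested were called in that direction.

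**Figure D5:**
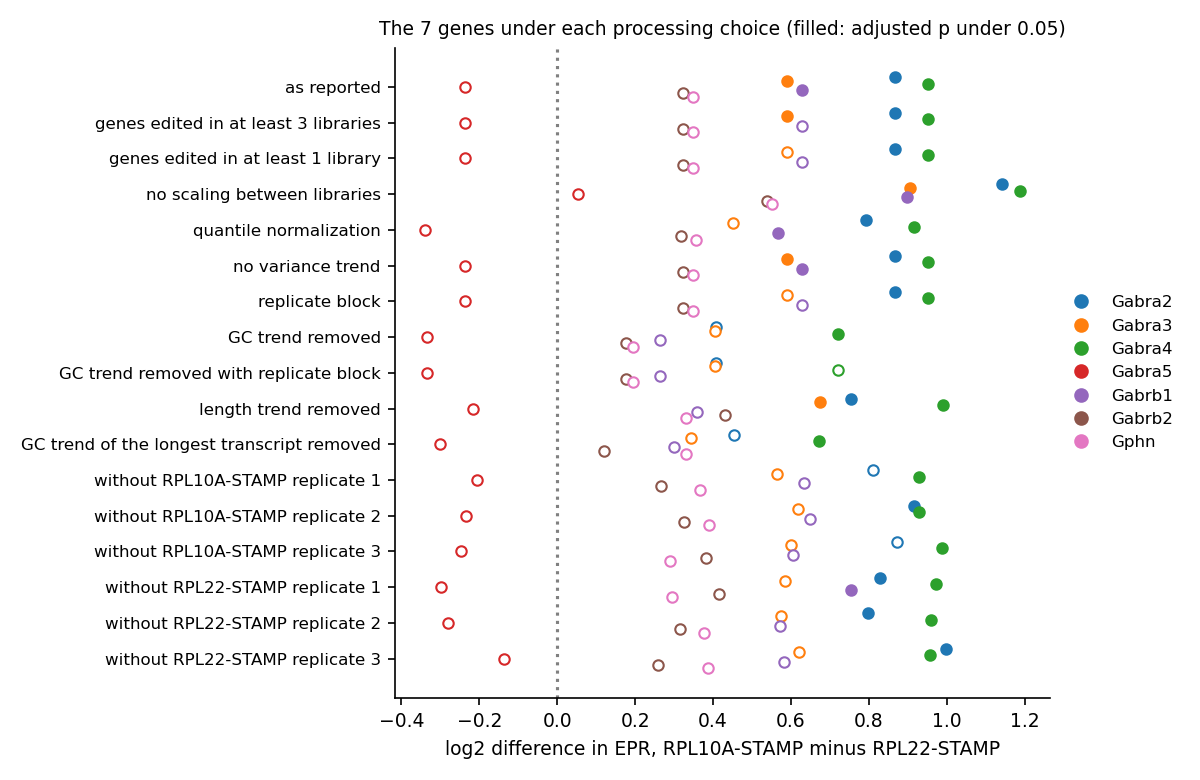
Log2 difference in EPR, RPL10A-STAMP minus RPL22-STAMP (horizontal axis), of the 7 genes (colours) under each processing choice (rows, with the 3 other pseudocounts left out because they change the scale). Filled points have a limma adjusted p under 0.05. *Gabra4* is filled in every row but the one that combines GC trend and replicate block (adjusted p = 0.0668), and *Gabra5* crosses 0 where libraries were not scaled.

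The calls also depended on single libraries. With 1 library left out, the number of the 7 genes called was 1 without RPL10A-STAMP 1 or RPL10A-STAMP 3, 3 without RPL22-STAMP 1, and 2 without RPL10A-STAMP 2, RPL22-STAMP 2 or RPL22-STAMP 3. In these fits 2.73% to 5.74% of all genes tested were called higher with RPL10A-STAMP. *Gabra4* was called in all 6 of these fits (adjusted p 0.0184 to 0.0298), and *Gabra3* in none (0.0617 to 0.0886). The *Gabra3* difference itself stayed between 0.56 and 0.62.

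Values are given for 10 further GABA-A receptor subunits, which are not the whole family, so no share of the family is drawn from them. *Gabrg3*, a gamma subunit, had an EPR of 0.0133 to 0.0163 with RPL10A-STAMP and 0.0128 to 0.0163 with RPL22-STAMP (log2 difference -0.23, limma adjusted p = 0.340), and *Gabrd*, the delta subunit that pairs with *Gabra4* outside synapses, had a log2 difference of 0.04 (adjusted p = 0.904). As deposited, these 2 genes overlapped between the variants, as *Gabra5* did. *Gabrr3*, a rho subunit best known from the retina, gave an EPR of 0.200 to 6.00, that is more edits than reads in some libraries, and is not interpretable here. *Gabrg1* was listed at 0 in RPL22-STAMP 1 and was not tested. *Gabra6*, known from cerebellar granule cells, and *Gabre*, *Gabrp*, *Gabrq*, *Gabrr1* and *Gabrr2* were listed at 0 in all 6 libraries.

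Of 25 tested genes that act around the receptor, 3 were called higher with RPL22-STAMP, beside 5.77% of all genes tested, and none with RPL10A-STAMP. Of 11 gephyrin partners and proteins of the inhibitory postsynapse, 10 were tested. By limma none was called higher with RPL10A-STAMP and 1 was called higher with RPL22-STAMP. At an unadjusted limma p under 0.05 there were 1 and 4. Of all 8046 genes tested, 2486 had such a p in either direction, which bears on the lists that follow too. The median log2 difference of the 10 genes was -0.33. This median was -0.05 after the GC trend was removed and -0.06 without scaling. The called gene was *Mdga1*, which binds neuroligin-2 and limits inhibitory synapses, at 0.0125, 0.00939 and 0.0185 in the RPL10A-STAMP libraries against 0.0214, 0.0342 and 0.0256 in the others (-0.91, limma adjusted p = 0.0148; -0.58 and 0.0755 after the GC trend was removed). The glycine receptor subunit *Glrb*, a gephyrin ligand, had a log2 difference of 0.31 (limma adjusted p = 0.148). Of 11 trafficking genes, all tested, the median was -0.04 and turned to 0.20 without scaling. At an unadjusted limma p under 0.05, 1 was higher with RPL10A-STAMP and 3 with RPL22-STAMP. After adjustment 2 were called, both higher with RPL22-STAMP. They were *Gabarap*, which binds gamma subunits (-0.53, limma adjusted p = 0.0305; -0.46 and 0.0615 after the GC trend was removed), and its relative *Gabarapl2* (-1.03, adjusted p = 0.0221), whose deposited values overlapped between the variants at 0.102 to 0.108. Of 5 genes of the GABA-B receptor, the G protein-coupled receptor for GABA, 4 were tested and none was called by limma (1 at an unadjusted p under 0.05), and the log2 differences ran from -0.67 to -0.19.

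Of 7 genes for GABA synthesis, transport and breakdown, 6 were tested and 1 was called, *Gad2*, which makes GABA. RPL10A-STAMP libraries gave 0.00980, 0.0106 and 0.00839, below the RPL22-STAMP libraries at 0.0140, 0.0159 and 0.0143 (log2 difference -0.54, limma adjusted p = 0.0446). The median of this list was -0.46, and -0.17 without scaling. Of the 2 chloride transporters, which set the direction of current through the receptor, *Slc12a5* (KCC2, which extrudes chloride) had an EPR of 0.0173, 0.0246 and 0.0247 in the RPL10A-STAMP libraries against 0.0498, 0.0614 and 0.105 in the others. It was thus higher in every RPL22-STAMP library (-1.61, SE 0.234, limma adjusted p = 0.00719). *Slc12a2* (NKCC1, which imports chloride) had a log2 difference of 0.73 (adjusted p = 0.103). Gephyrin also acts in molybdenum cofactor synthesis, and of the 3 other genes listed for that pathway 1 was tested, *Mocs2*, which was higher with RPL22-STAMP (-0.88, limma adjusted p = 0.0150). Without scaling, *Slc12a5* was still called and *Mdga1*, *Gabarap*, *Gabarapl2*, *Gad2* and *Mocs2* were not (adjusted p 0.0771 to 0.263), all in the same direction. After the GC trend was removed, *Gabarapl2*, *Gad2*, *Slc12a5* and *Mocs2* were still called (adjusted p 0.00847 to 0.0228). With 1 library left out, *Slc12a5* was called in every fit, and *Gad2* (limma adjusted p 0.0764 to 0.154) and *Gabarap* (0.0654 to 0.114) in none. *Gabarapl2* was called only without RPL22-STAMP 1 (0.0414), and *Mdga1* and *Mocs2* in most of these fits. *Gad2* was also not called with the replicate block (0.0795) or with another pseudocount (0.0501 to 0.0518).

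The profile of the 7 genes over the 6 libraries was most like those of *Cadm2*, a synaptic adhesion gene (Pearson r = 0.999), *Map2*, a dendritic microtubule gene (r = 0.999), and *Mal2*, a membrane trafficking gene (r = 0.998). The measure was the correlation of scaled log2(EPR + 0.01) with the mean profile of the 7, over 6 libraries that fall into the 2 variants, and 294 genes tested had an r above 0.95. Their own log2 differences were 0.70, 0.32 and 0.58 (limma adjusted p = 0.0156, 0.119 and 0.0251).

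The median EPR of the genes tested was 0.0120 to 0.0161 in RPL10A-STAMP libraries and 0.00907 to 0.0129 in RPL22-STAMP libraries. Scaling removed a median log2 difference of 0.18 between the variants. With unscaled values 956 genes were called higher with RPL10A-STAMP and 129 lower, against 685 and 464 after scaling, that is 11.9% and 1.60% against 8.51% and 5.77% of the genes tested, and the same 4 of the 7 genes were called. All 5 neuronal markers were edited in every library, with summed EPR of 0.0820 to 0.0985 with RPL10A-STAMP and 0.0778 to 0.101 with RPL22-STAMP. Of these, *Syn1* was called higher with RPL22-STAMP (-0.82, limma adjusted p = 0.00814). *Map2* was the 1 marker of this list with a positive log2 difference (0.32, adjusted p = 0.119) and was not called. The 3 markers of excitatory neurons summed to 0.0887 to 0.136 and 0.0495 to 0.0591, where *Slc17a6* was called higher with RPL10A-STAMP (1.48, limma adjusted p = 0.0185). *Slc17a7* (0.04) and *Neurod6* (-0.22) of the same list were not called. The 5 markers of GABAergic neurons summed to 0.0269 to 0.0528 and 0.0526 to 0.0695, where *Gad2* was called lower with RPL10A-STAMP. *Gad1* (-0.72, limma adjusted p = 0.0639) and *Dlx1* (-0.15, adjusted p = 0.519) of the same list were not called. *Slc32a1* and *Dlx2* were not tested, and *Dlx2* was above 0 only in RPL10A-STAMP 3 (0.0261), which enters the highest RPL10A-STAMP sum. Of 5 astrocyte markers 3 were edited in all libraries and none was called by limma, nor at an unadjusted p under 0.05 (0.131 to 0.194 and 0.0825 to 0.199). Of 5 oligodendrocyte markers *Mog* and *Sox10* were at 0 throughout (0.00358 to 0.0886 and 0.0221 to 0.0571), as were *Aif1*, *Csf1r*, *P2ry12* and *Tmem119* of 5 microglial markers (0 to 0.0143 and 0 to 0.0364). The part of these cell types in the EPR of the 7 genes was not tested.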

How the data were processed

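Trimming used cutadapt 1.18, alignment to mm10 STAR 2.5.2b (up to 10 locations per read), edit calls SAILOR and read counts featureCounts 1.5.3. The authors deposited 1 ratio per gene and library, EPR (edits over reads), not normalized between libraries. A read placed at several locations can enter the values of related genes. Of the identifiers, 31011 were found in GENCODE mouse release 21 (GRCm38) and 42 were not. EPR was scaled by library medians, and log2(EPR + 0.01) was compared by limma (3.58.1, R 4.3.3) with a variance trend. The limma step alone was run on simulated log2 values, drawn as limma assumes with the means and spread fitted here. That run did not cover the scaling, the filter, the pseudocount or the counting of edits. GC and length trends were natural splines with 4 degrees of freedom. Ratios to *Gphn* were compared with exact permutation tests over 20 labelings (scipy 1.17.1). Genome copies were searched with BLAST 2.17.0. The 7 genes and the gene lists were chosen with earlier results of these data known. Some genes of the lists are not reported here, and list counts leave them out. Named genes were the 7, list genes called or at 0, and the 3 most alike profiles; names of other list genes were added with their values known. Alternatives were the filter, pseudocount, scaling, variance trend, replicate block, GC and length trends, and each library left out.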

Additional observations from a re-analysis of the deposited data

How the results depend on the processing

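Of all 8046 genes tested 1149 (14.3%) were called, and of the 7 genes 4. Testing the 10909 genes edited in at least 3 libraries gave 754 genes (6.91%) and 3 of the 7. Testing the 12811 genes edited in at least 1 library gave 569 (4.44%) and 2 of the 7. Shares in brackets are of all genes tested in that fit. With the replicate block 603 genes (7.49%) and 2 of the 7 were called, and with the GC trend removed 654 (8.14%) and 1. With both the counts were 199 (2.48%) and 0, where *Gabra4* came closest (limma adjusted p = 0.0668). In that fit 2 of the 7 had an unadjusted limma p under 0.05, as had 2063 of all 8039 genes tested. With the GC content of each gene's longest transcript, an alternative chosen after seeing the data, 723 genes (8.99%) and 1 of the 7 were called. Leaving out each library in turn gave 355 to 780 genes (4.34% to 9.30%) and 1 to 3 of the 7. In scaled values, same-numbered libraries of the 2 variants deviated together with correlations of -0.01 to 0.05. Scaling removes a shift common to a whole library, so these correlations cannot show pairing of that kind. Before scaling, library 1 had the lowest median EPR in both variants (0.0120 and 0.00907). The numbers were not taken to pair the samples, and the fit with the replicate block is given above. Replacing the pseudocount by 0.001, by 0.1 or by none kept 4 of the 7 called, beside 13.1% to 13.6% of all genes tested. *Gabra5* was the 1 gene of the 7 whose log2 difference changed sign in the 19 alternatives, to 0.0534 without scaling. The cause was not tested.

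The difference in *Gphn* ratio kept its direction for *Gabra2*, *Gabra4*, *Gabra5* and *Gabrb1* with logged ratios and with each library left out (0.67 to 1.10, 0.78 to 1.11, -2.07 to -1.64 and 0.07 to 0.69 over the libraries left out). That of *Gabra3* ran from -0.0481, without RPL22-STAMP 2, to 0.51, and that of *Gabrb2* from -0.24 to 0.17, turning positive without RPL10A-STAMP 3 (0.06) or RPL22-STAMP 1 (0.17).

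The depth behind each EPR is unknown, so counting error could not be set beside the spread between libraries, which matters most for the low values of *Gphn*, *Gabrb2* and, with RPL22-STAMP, *Gabra4*. The 3 libraries per variant limit every test here.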
